A study of Mus musculus with 6 samples.

Results

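Of the 20555 control-brain 5hmC peaks on chromosomes 1 to 19, 2355 each lay over 2 or more separate peaks of the injured brain, and these split control peaks and the 4834 injury peaks on them are described here. They were chosen by a count: a control peak belonged to the set where at least 2 injury peaks overlapped it by 1 bp or more each. The set is 11.5% of the autosomal control peaks (95% interval 11.0 to 11.9%), and its injury peaks, called intervals below, are 9.06% of the 53341 autosomal injury peaks. Of the 28 control peaks on the X chromosome 0 were split, which allows a share of up to 10.7% (3 counts of the total). In all, the series holds 20583 control and 53374 injury peaks.

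The samples were brain tissue of C57BL/6 mice, 3 with ischemic injury (labelled I/R) and 3 matched controls. Fragments carrying 5hmC were captured by selective chemical labelling (hMe-Seal) and sequenced, and each group has 1 deposited list of enriched regions, or peaks, placed on the mm9 build. Age, sex, brain region and the time after injury are not stated in the labels. The tissue is a mixture of cell types, so a change in the cells present and a change of 5hmC within cells cannot be told apart. With 1 list per group no value for a single mouse and no read depth was used, so the variation among mice of a group is unknown. The 95% intervals on shares and counts cover counting error only and treat peaks as independent. No test of the conditions was made.

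5-Hydroxymethylcytosine (5hmC) is made from 5-methylcytosine by the TET enzymes, and it is abundant in neurons, where it lies mainly along the bodies of transcribed genes and at enhancers. Broad stretches of 5hmC are common in brain DNA. A peak caller turns such a stretch into 1 region or into several, depending on where the enrichment passes its threshold. A control peak can lie over several injury intervals because pieces of one stretch were called separately, or because neighbouring injury peaks reach over its edge, and the rule takes in both. No genome or gene annotation of mm9 was used here, so regions are given by position only, without sequence or gene names.

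Most split control peaks carried exactly 2 injury intervals, and they were largely covered. A total of 2151 (91.3%, 90.1 to 92.4%) had 2 intervals, 190 had 3, 10 had 4, 2 had 5, and 1 peak each had 6 and 9, so that 204 control peaks (0.992% of those on the autosomes) had 3 or more. Injury intervals covered a median of 90.8% of a split control peak (quartiles 80.5 and 95.8%, lowest 5.75%). In control peaks over exactly 1 injury interval, 14366 in all, the median was 91.2% (74.3 and 99.5%). Summed over the 2355 peaks, 9.88 of 11.5 Mb (86.3%) lay under injury intervals, against 83.3% of the summed length of the control peaks with 1 interval. The share of peaks covered to 90% or more was 52.3% (50.3 to 54.3%) in the split set and 52.7% (51.9 to 53.5%) in the set with 1 interval, so the intervals of these shares overlapped. Coverage under 50% was found in 2.97% of split peaks (2.32 to 3.74%) and in 8.12% of those with 1 interval (7.68 to 8.58%). The rule bears on these comparisons. A split peak has 2 or more overlaps and at least 1 gap, so it cannot be fully covered, while a single interval may only touch an edge. Of the uncovered length, 0.930 Mb (8.12% of the total) lay in gaps between intervals and 0.644 Mb (5.63%) at the ends of the control peaks.

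The gaps between injury intervals were short. Inside the split control peaks there were 2582 gaps with a median of 189 bp (95% interval 177 to 199 bp, quartiles 69 and 427 bp), from 1 bp to 5797 bp. Gaps of at most 50 bp made up 19.7%, of at most 200 bp 52.1% and of at most 1000 bp 91.4%, and 49 gaps (1.90%) were longer than 2000 bp. A gap took a median of 4.24% of the control peak's width. Gaps lay toward the centre of the control peak: with its length divided into 5 equal parts, the middle part held 31.1% of gap midpoints (29.3 to 32.9%), and the outermost parts held 14.2% (12.9 to 15.6%) and 13.3% (12.0 to 14.7%). The rule itself bears on this, since a gap at the very edge leaves little room for an overlap beyond it. In 2135 split peaks (90.7%) no gap exceeded 1000 bp, and in 727 (30.9%) none exceeded 100 bp.

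**Figure D1:**
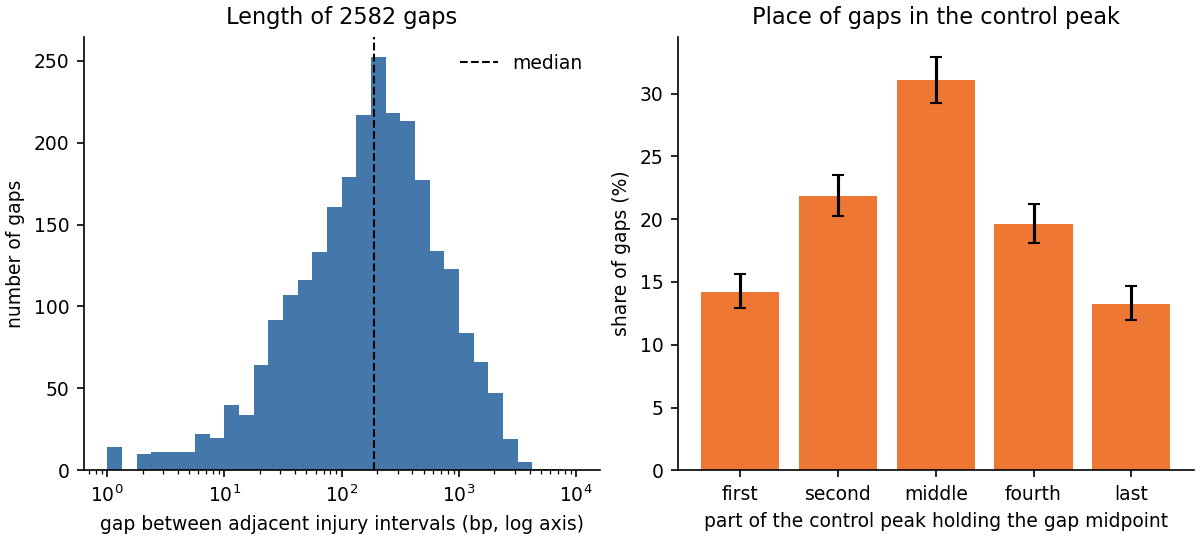
Left, histogram of the length in bp (log axis) of the 2582 gaps between adjacent injury intervals inside split control peaks, with the median of 189 bp as a dashed line. Right, share of gap midpoints (%) in each of 5 equal parts of the control peak, with exact binomial 95% intervals; the middle part holds 31.1% and the outer parts 14.2% and 13.3%.

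Short gaps were found both inside control peaks and away from them. The injury list held 3990 gaps of at most 200 bp between neighbouring peaks, and 1346 of them (33.7%, 32.3 to 35.2%) lay inside 1 control peak. Another 1431 of these short gaps (35.9%) separated 2 injury peaks without any control overlap. Of all 53322 gaps between neighbouring injury peaks, whatever their length, 2582 lay inside 1 control peak. Injury peaks without control overlap were 35115 of 53341. Among the 12046 injury-list gaps of at most 1000 bp, 2360 (19.6%) lay inside 1 control peak, with a median of 164 bp. The 4562 between 2 injury peaks without control overlap had a median of 368.5 bp. A gap inside a control peak cannot be longer than that peak, so these medians are not on equal terms.

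The stretch from the first to the last injury interval was often longer than the control peak. From the start of the first to the end of the last interval, the injury intervals spanned a median of 5868 bp, 1.32 times the width of their control peak (quartiles 1.02 and 1.82). The span exceeded the control peak in 1821 of 2355 (77.3%, 75.6 to 79.0%). Outermost intervals passed both edges of the control peak in 982 (41.7%), 1 edge in 1101 (46.8%) and neither in 272 (11.5%). In control peaks with 1 interval the same shares were 23.3% at both edges, 48.4% at 1 edge and 28.3% at neither. The rule bears on the span and on the edges passed, since an injury peak that reaches over an edge by 1 bp counts toward a split. Where an edge was passed, the overhang had a median of 1072 bp (quartiles 275 and 2295 bp). Of the 4937 overlaps between a split peak and an interval, 1872 (37.9%) held the whole interval, while 1294 (26.2%) held less than 50% of it. In the latter case the interval was mainly a neighbouring injury peak that reached over the edge. In 1173 split peaks (49.8%, 47.8 to 51.8%) every interval had 50% or more of its length on the control peak. When an interval counted only with at least 50% of its own length on the control peak, 1273 split peaks were left.

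The threshold of the rule is 2 intervals and 1 bp. Just inside it, 157 split peaks (6.67%) had an overlap of under 50 bp, the smallest being 1 bp, and 142 (6.03%) would not be split without it. Just outside it, 190 of the control peaks with 1 interval (1.32%) had a further injury peak within 50 bp of an edge, and 4481 (31.2%) had one within 1000 bp.

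Split control peaks were wide. Their median width was 4253 bp (quartiles 3164 and 5842 bp), compared with 2678 bp for control peaks with 1 injury interval and 2091 bp for those with none. Width rose with the number of intervals, from a median of 4098 bp with 2 to 6493.5 bp with 3 and 11619.5 bp with 4 or more (14 peaks). A width of 5 kb or more was found in 865 split peaks (36.7%, 34.8 to 38.7%) and in 7.11% (6.69 to 7.54%) of peaks with 1 interval. Of the 148 control peaks of 10 kb or more, 101 (68.2%, 60.1 to 75.6%) were split. Narrow members existed too, with 113 (4.80%) under 2000 bp and the narrowest at 1342 bp.

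**Figure D2:**
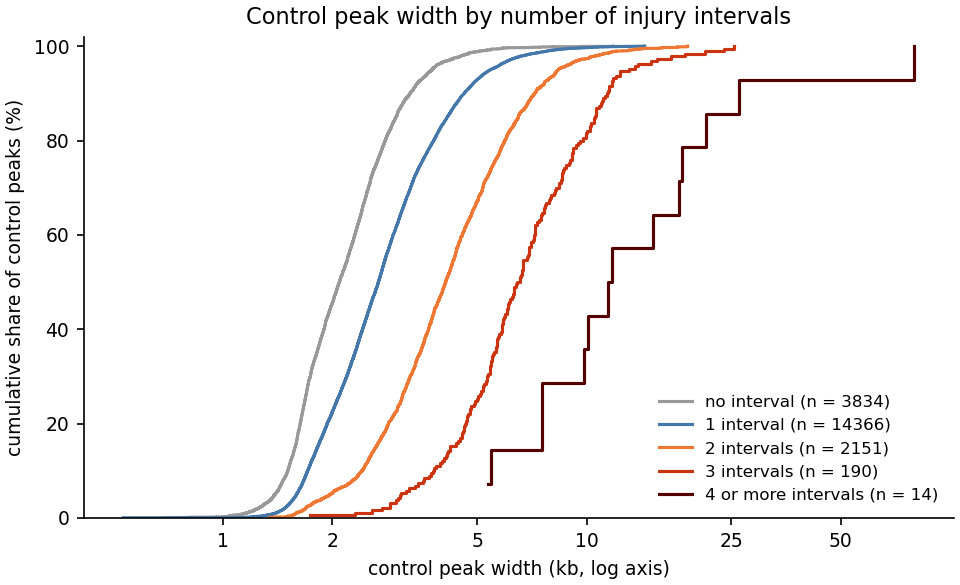
Cumulative share (%) of control peaks by width (kb, log axis), with 1 line for each number of injury intervals on the control peak. The lines shift to greater widths from no interval (median 2091 bp) through 1 (2678 bp), 2 (4098 bp) and 3 (6493.5 bp) to 4 or more (11619.5 bp).

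A wider peak has more room for a second interval, so the split share was also taken by width. Over 10 classes of about equal number, it rose from 1.80% (1.27 to 2.47%) in the narrowest, 532 to 1665 bp, to 6.68% (5.63 to 7.84%) at 2656 to 2945 bp and 43.6% (41.4 to 45.8%) in the widest, 4904 bp and more. The number of internal gaps per 10 kb of control peak rose as well, from 0.12 in the narrowest class to 0.24 at 2656 to 2945 bp and 0.78 in the widest. Over all control peaks the rise was therefore steeper than in proportion to length. Peaks without an injury interval, which can hold no gap, are included. In the narrowest class 52.8% of the lower-scoring and 59.8% of the higher-scoring 50% had any injury interval. In the widest class the shares were 96.9% and 98.3%. In the narrow classes a gap must fit beside at least 2 overlaps, which limits the count there.

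Score, the peak caller's own measure of enrichment, followed width. Split control peaks had a median score of 117.6 within the control list, against 81.8 with 1 interval and 64.1 with none, and 538 of them (22.8%, 21.2 to 24.6%) stood in the highest-scoring 10% of that list. At a given width the split shares of lower- and higher-scoring peaks, taken over all control peaks, were mostly close. In the widest class the split share was 41.7% (38.7 to 44.8%) in the lower-scoring 50%, with a median score of 125.8, and 45.4% (42.4 to 48.5%) in the higher-scoring 50%, with a median score of 286.7. At 3907 to 4903 bp the shares were 21.3% (18.9 to 24.0%) and 22.5% (20.0 to 25.2%). At 3327 to 3906 bp they were 16.2% (14.0 to 18.6%) and 15.7% (13.5 to 18.0%). The 95% intervals of the lower-scoring and the higher-scoring 50% overlapped in all 10 width classes, by the least at 2656 to 2945 bp. There the shares were 8.19% (6.58 to 10.04%) and 5.17% (3.89 to 6.70%). In that class 79.3% (76.7 to 81.8%) of lower-scoring and 89.1% (87.0 to 90.9%) of higher-scoring peaks had any injury interval. This share was greater for the higher-scoring 50% in every width class. Split shares among only the control peaks with an injury interval were not compared by score. Overlapping intervals do not show that shares are equal, and the differences were not tested.

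**Figure D3:**
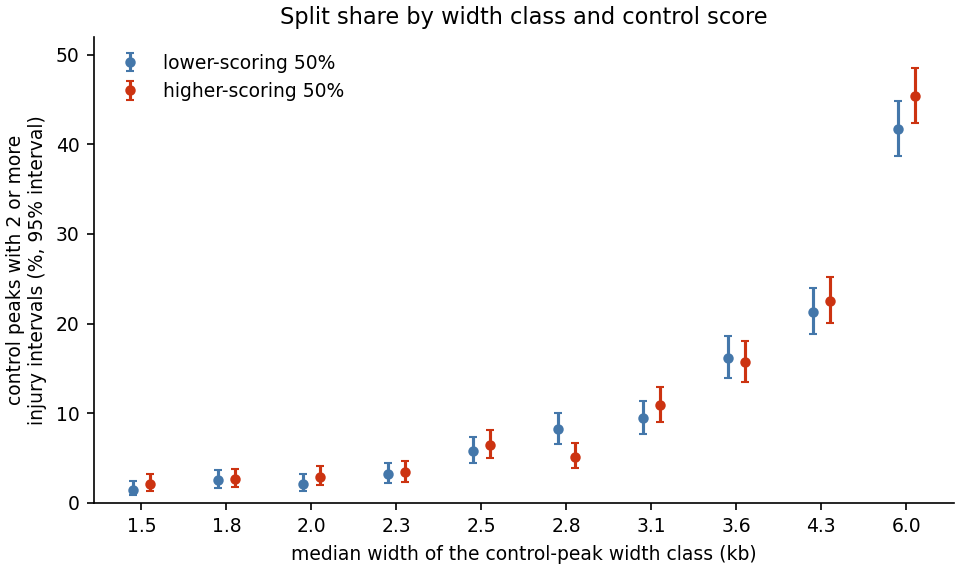
Share (%) of control peaks with 2 or more injury intervals in 10 width classes (x axis, median width in kb), separately for the lower-scoring and higher-scoring 50% of each class; points carry exact binomial 95% intervals. The share climbs from under 3% in the narrowest class to 41.7% and 45.4% in the widest, and the points of a class lie close together.

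The injury intervals on a split peak were usually unequal. Among the 2151 control peaks with exactly 2 intervals, the wider interval was 1.57 times as wide as the other at the median (quartiles 1.23 and 2.23) and the higher score 1.82 times the lower (1.31 and 2.85). The larger piece held a median of 67.0% of the overlap, and in 660 peaks (30.7%) it held 80% or more. Because the larger value is always set over the smaller, some inequality follows by construction. No other pairs of neighbouring injury peaks were set beside these. In the peaks with exactly 2 intervals the wider interval also had the higher score in 75.2% (73.3 to 77.0%). It lay at the lower coordinate in 52.7% (50.5 to 54.8%), slightly above an even share. Among the 190 peaks with 3 intervals the highest score fell on the first in 63, on the middle in 62 and on the last in 65. The widest interval was the first in 71, the middle in 48 (25.3%, 19.3 to 32.1%) and the last in 71. The counts by score were nearly equal, and the count by width was lowest for the middle interval; these differences were not tested. In those peaks the highest score was 2.84 times the lowest at the median (2.03 and 4.51).

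Within the injury list, the intervals on split peaks scored between the other classes. Their median score was 123.2, compared with 146.4 for the 13392 injury peaks that lay on other control peaks and 75.5 for the 35115 without control overlap. Their median width was 2399.5 bp, against 2649 bp and 1894 bp. The best interval of a split peak had a median score of 194.6 and the least interval 83.1. In 902 split peaks (38.3%, 36.3 to 40.3%) the best interval belonged to the highest-scoring 10% of the injury list, and in 1270 (53.9%, 51.9 to 56.0%) the least interval scored below the injury-list median of 87.3. Both shares are raised by construction, since the best and the least are picked from 2 or more intervals. Taken singly, 21.7% of the intervals on split peaks (20.6 to 22.9%) were in that highest-scoring 10%. The share was 26.0% (25.2 to 26.7%) for injury peaks on other control peaks and 2.30% for those without control overlap.

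The 4 control peaks with 5 or more intervals were long regions on chromosomes 2 and 17. The widest, of 79.7 kb on chromosome 2 (77710619 to 77790297, score 241.0), carried 9 intervals of 1.39 to 51.0 kb, separated by gaps of 37 to 1717 bp. Of its 8 gaps, that of 1717 bp near its upper end was the only one over 1 kb. A neighbour of 26.2 kb (77807899 to 77834122, score 254.3) carried 5 intervals with scores of 430.6, 567.1, 103.0, 146.0 and 1251.2, from the lower to the upper end, and was covered to 83.1%. The scores were high at both ends of this peak and low in the middle, where the gaps of 1360 and 1635 bp lay. Farther along chromosome 2 a peak of 21.3 kb (164953700 to 164975005, score 109.0) carried 6 intervals, the first of which began 6003 bp before it. Its last 3 intervals scored 114.2, 103.8 and 56.5, and the last gap, of 996 bp, was the longest.

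Breaks on chromosome 17 included very fine ones. A peak of 15.3 kb (30621497 to 30636773, score 563.4) carried 5 intervals, and 2 of its gaps were only 3 and 7 bp long. The interval at its lower end reached 7657 bp beyond it and overlapped it by 173 bp. Among the 10 peaks with 4 intervals, which also lay on chromosomes 4, 7, 8, 10, 11 and 19, the widest was taken as the example. This peak of 18.3 kb on chromosome 17 (27541601 to 27559946, score 96.8) carried 4 intervals scoring from 487.4 to 674.8 and separated by 35, 26 and 10 bp. Each of the 4 scored at or above at least 98.2% of injury peaks, while the control peak scored at or above 63.7% of control peaks. Further peaks on chromosome 17 were among the widest of the set but carried 3 intervals each. A peak of 25.5 kb (31036254 to 31061735, score 436.2) had a middle interval 16.0 kb long, with gaps of 187 and 280 bp. A peak of 23.9 kb (30981447 to 31005349, score 79.1) had intervals scoring 508.4, 792.3 and 1413.8, with gaps of 173 and 760 bp.

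**Figure D4:**
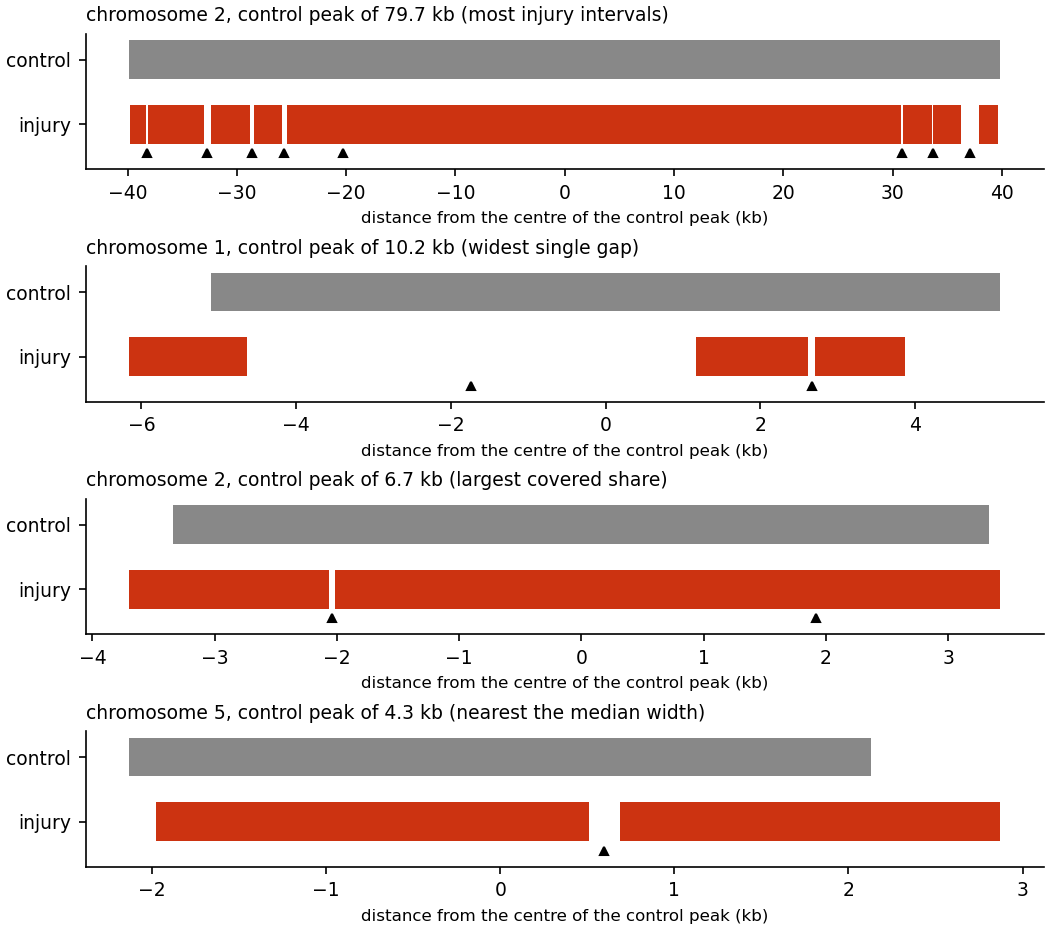
Maps of 4 split control peaks (grey) and their injury intervals (red), as distance in kb from the centre of the control peak; triangles mark the gaps, and each map has its own scale. From top to bottom: the 79.7 kb peak with 9 intervals, the peak with the longest single gap (5.80 kb), the peak with the largest covered share (99.3%) among those with 3 or more intervals, and a peak of nearly the median width (4.26 kb) with a gap of 174 bp.

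Of the 5 highest-scoring split control peaks, 4 carried 1 strong and 1 much weaker interval. The peak on chromosome 5 (144008494 to 144019122, 10.6 kb, score 3100) carried intervals scoring 188.6 and 1001.3. The peak on chromosome 7 (4979691 to 4985780, 6.09 kb, score 3100) carried an interval of 3999 bp scoring 1181.6 and one of 1004 bp scoring 55.5, near the minimum of 50. On chromosome 10 (80294749 to 80300880, 6.13 kb, score 2403.7) the scores were 909.1 and 53.1, with a gap of 54 bp. On chromosome 19 (6422708 to 6434177, 11.5 kb, score 2773.4) they were 173.7 and 1214.5, with a gap of 822 bp. The exception among these 5 was chromosome 15 (100881776 to 100885998, 4.22 kb, score 2454.5), where the intervals scored 272.1 and 208.6 across a gap of 120 bp. The weaker piece thus scored 53.1 to 208.6 in all 5.

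A few split control peaks held a long uncovered inner stretch. The longest gap, 5797 bp, lay in a 10.2 kb peak on chromosome 1 (169202200 to 169212400), whose low control score of 59.2 was reached or undercut by 21.8% of control peaks. Its 3 intervals covered 30.3% of it, the smallest share among peaks with 3 or more intervals. The next, 4525 bp, lay in a 9.70 kb peak on chromosome 7 (20049595 to 20059295) with a high control score of 441.6, whose intervals scored 113.6 and 53.1. Gaps of 3948 bp on chromosome 11 (5075884 to 5086323), 3935 bp on chromosome 2 (118364031 to 118370987) and 3593 bp on chromosome 19 (47052864 to 47063163) followed. The chromosome 11 peak was split only by an interval overlapping its edge by 49 bp, so that its gap was in effect an uncovered end. The 49 split peaks with a gap over 2000 bp were covered to a median of 58.6% and had a median control score of 174.7. Low coverage with 3 intervals was also found in a 7.02 kb peak on chromosome 1 (183763016 to 183770032, 58.8%) and a 7.65 kb peak on chromosome 11 (115968439 to 115976086, 59.3%).

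At the other end stood peaks divided by a few bases. A 6.68 kb peak on chromosome 2 (156442048 to 156448723, score 170.8) was covered to 99.3% by 3 intervals with gaps of 44 and 1 bp. A 10.8 kb peak on chromosome 4 (117726966 to 117737796, score 84.0) had gaps of 33 and 45 bp, and a 7.13 kb peak on chromosome 19 (53421370 to 53428498, score 689.5) gaps of 35 and 21 bp. Peaks of about the median width were taken by rule, 1 on each of the 3 chromosomes with most split peaks. On chromosome 5 (142813303 to 142817563) intervals of 2.49 and 2.19 kb, scoring 96.8 and 73.7, were parted by 174 bp. On chromosome 4 (135068473 to 135072725) the gap was 39 bp, and on chromosome 11 (102858661 to 102862908) it was 224 bp. In both of these the first interval lay mostly outside the control peak, reaching 3636 and 6177 bp beyond it. Neither stayed split when an interval needed 50% of its length on the control peak.

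Split control peaks lay where control peaks were dense. The fixed 1 Mb window in which a split peak lay held a median of 36 control peaks, the peak itself included (quartiles 20 and 55). The median was 27 (14 and 43) for peaks with 1 interval and 18 (8 and 35) for those with none. Neither these counts nor the neighbour shares below were taken at equal peak width. Another control peak lay within 5 kb of 66.4% of split peaks (64.5 to 68.3%), 50.5% (49.6 to 51.3%) of those with 1 interval and 33.3% (31.8 to 34.8%) of those with none. In 608 split peaks (25.8%) at least 1 interval also lay on another control peak, so that splitting and joining met at one place. Counted by interval these were 558 of 4834 (11.5%, 10.7 to 12.5%). Of all 53341 injury peaks, most of which lay on no control peak, 987 (1.85%) lay on 2 or more. A split peak has 2 or more intervals and so more chances of such a one, and the share for control peaks with 1 interval is not given. Split peaks also followed one another. The next control peak along the chromosome was split after 16.7% of split peaks (15.2 to 18.2%), after 11.6% (11.0 to 12.1%) of peaks with 1 interval and after 7.89% (7.06 to 8.79%) of peaks with none. Since 1 injury interval can reach 2 neighbouring control peaks, as 103 intervals did within the set, neighbours are not independent.

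Consecutive split peaks formed runs in places. Of 1963 runs, 1648 were single peaks, 254 were pairs and 61 were longer. The longest, on chromosome 5 (122293782 to 122356479, 62.7 kb), held 7 control peaks of 2187 to 9072 bp over 12 intervals. Runs of 5 were on chromosome 17 (30621497 to 30703264, 11 intervals), chromosome 5 (134691592 to 134756681, 11 intervals) and chromosome 11 (116464208 to 116522821, 11 intervals). By 1 Mb windows, the most split peaks lay on chromosome 17 from 30 to 31 Mb, 24 of 72 control peaks (33.3%), on chromosome 10 from 80 to 81 Mb, 22 of 85 (25.9%), on chromosome 17 from 27 to 28 Mb, 21 of 81 (25.9%), and on chromosome 2 from 165 to 166 Mb, 21 of 75 (28.0%). These windows were chosen for their counts, so the shares are a description. Of the 1596 windows with a control peak, 695 had a split one, and the 50 windows with the most held 27.6% of split peaks and 15.6% of control peaks.

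Over whole chromosomes the split share ranged from 7.30% on chromosome 14 (5.27 to 9.81%, 40 peaks) to 13.9% on chromosome 2 (12.2 to 15.7%, 219 peaks). Chromosome 5 had the most split peaks, 257 of 1900 (13.5%, 12.0 to 15.1%), followed by chromosome 4 with 241 of 1841 (13.1%, 11.6 to 14.7%) and chromosome 11 with 230 of 1815 (12.7%, 11.2 to 14.3%). If the control peaks of a chromosome were split at the genome-wide share of their width class, chromosome 14 would have 9.80% and chromosome 5 12.5%, both inside the observed intervals. Chromosome 2 would have 11.5%, below its observed interval, with 181.3 split peaks against 219 (Poisson interval 191.0 to 250.0). Of the 19 autosomes it was the only one whose value from widths fell outside the observed interval. With 19 intervals at 95%, a single miss can come from counting error alone, so chromosome 2 is not set apart by it. Chromosome 14 lay only just inside, at 9.80% against an upper limit of 9.81%.

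**Figure D5:**
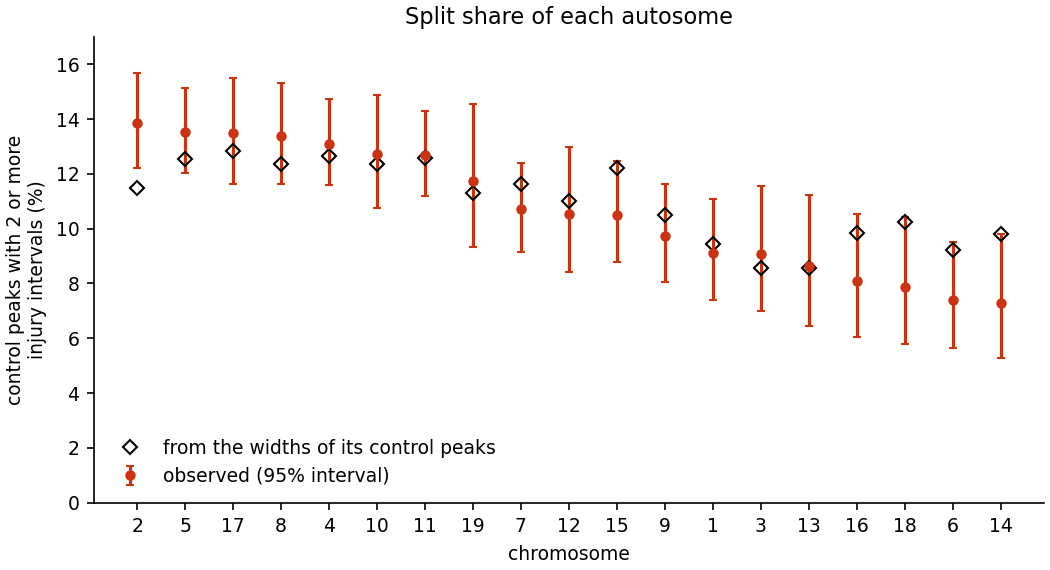
Share (%) of each autosome's control peaks with 2 or more injury intervals (red points with exact binomial 95% intervals), ordered by that share, and the share given by the widths of its control peaks at genome-wide split shares (open diamonds). Chromosome 2, at 13.9%, is the only one whose diamond, at 11.5%, lies outside its interval; among 19 such intervals a single miss can come from counting error alone.

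The number of split peaks depended on which injury peaks were kept. Shortening the injury list by score changes its length and its scores together. The reverse case, an injury peak over 2 or more control peaks, was found 987 times as deposited (1.85% of injury peaks). With the injury list shortened by score to the same number of peaks as the control list, 895 control peaks were split by injury intervals (4.35%, 4.08 to 4.64%) and 896 injury peaks by control peaks (4.35%, 4.08 to 4.64%). At equal list length the shares in both directions thus differed by less than counting error. All 895 were among the 2355 described above, which follows from the shortening, since removing injury peaks can only lower the number on a control peak. Joining injury intervals across gaps of at most 1 kb left 220 split control peaks, 9.34% of the set.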

How the data were processed

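5hmC was profiled by hMe-Seal in the brains of 6 mice, 3 injured and 3 control. Per the submitters' processing notes, MACS 1.4.2, Bowtie 0.12.9 and CASAVA 1.4 were used with the mm9 build; their settings are not stated. For each group the authors deposited a single list of peaks with positions and scores. The lowest deposited score is 50 in either list. The score is taken as MACS's transformed p-value. It was read within its own list, except that the control median score served as a threshold for both lists in 1 of the processing settings. Control and injury scores given side by side for a region were not compared. Pooling of mice, an input control and read numbers are not stated either. Read depth bears on how many peaks are called and where they end, and its part in the splitting was not tested.

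Lists were assigned to groups by the name they share with the samples. Overlaps, gaps and coverage were computed from the deposited positions in pandas 2.3.3 and numpy 2.4.6 under Python 3.11.15 (intervals in scipy 1.17.1, plots in matplotlib 3.10.9), on chromosomes 1 to 19, and positions are printed counting from 1. On simulated intervals placed on the 20555 control peaks, 100% of interval numbers were recovered. These lay wholly inside their control peaks, so overlaps across an edge were not simulated. A direct comparison of all pairs of deposited peaks on chromosome 19 gave 0 mismatches over 622 control peaks. Intervals on shares are exact binomial (Clopper-Pearson), on medians from order statistics, at 95%. The members and lists were chosen with earlier results of these data known. Regions were named by rule: the 5 split peaks with the most intervals (ties by width), the 5 widest, the 5 highest-scoring, the 5 with the longest gap, the 3 least and 3 most covered with 3 or more intervals, and the one nearest the median width on each of the 3 chromosomes with most split peaks. Runs and windows were chosen by their counts.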

Additional observations from a re-analysis of the deposited data

How the results depend on the processing

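The number of split control peaks, 2355 as reported, was 1273 when an interval needed 50% of its length on the control peak, 220 with injury intervals within 1 kb merged, 1090 with peaks of either list under the control median score (79.7) removed, and 895 with the reduced injury list; a 200 bp overlap gave 1920. The share of control peaks split was 6.19%, 1.07%, 10.6% and 4.35% in that order, and 9.34% with 200 bp. The share with exactly 2 intervals was 93.0%, 99.1%, 92.8% and 94.0%. The median coverage was 89.1%, 64.8%, 91.5% and 92.9%, and the median width 5163, 5254, 5220 and 5279 bp, with 4576.5 bp at 200 bp overlap. The median gap was 1510 bp after merging, which removes the short gaps by construction, and 176 bp with the reduced list; with 50% overlap, 200 bp overlap and the score threshold it stayed within its 95% interval. Of the 25 named regions, 21 stayed split with 50% overlap, 24 with 200 bp, 9 after merging, 18 of 23 tested at the score threshold and 16 with the reduced list. No paired analysis was possible because a single list stands for the 3 mice of a group, which also means that leaving out a mouse was not an option. The depth behind each list is unknown.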

Other observations

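Split control peaks and split injury peaks differed in the length of their gaps. Inside split control peaks the gaps between injury intervals had a median of 189 bp (95% interval 177 to 199 bp). Inside the 987 split injury peaks the gaps between control peaks had a median of 371 bp (333 to 400 bp). With lists of equal length the medians were 176 bp (159 to 195 bp) over 960 gaps and 371 bp (331 to 403 bp) over 975 gaps. The median coverage of the split peaks was then 92.9% for control peaks and 86.9% for injury peaks, and their median widths were 5279 and 6042.5 bp. This comparison was made after the data were seen, and its cause was not tested.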
